A study of Canis lupus familiaris with 18 samples.

Results

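In the pons of 6 dogs, 2505 autosomal regions carried an *E2F1* *ChIP-seq* peak in at least 4 animals and overlapped no *H3K27ac* peak of any animal. They are called *E2F1*-only sites here, in the sense that none of the 6 deposited *H3K27ac* lists holds a peak over them. The sites were drawn from 512222 merged regions, which were made by joining the *E2F1* peaks of all 6 dogs on chromosomes 1 to 38 wherever these overlapped or touched. The sites were selected on 3 measured values, namely the number of dogs with a peak, a merged length under 2 kb and the absence of *H3K27ac*, so these values are given as description and were not tested.

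*E2F1* is a transcription factor of the retinoblastoma pathway that binds mainly at gene promoters, where it acts on genes of the cell cycle. *H3K27ac* is the acetylation of a lysine on histone H3, and it marks active promoters and enhancers. Promoters in use often carry both, so that a recurrent *E2F1* peak away from any acetylated stretch is the less usual case. Dog autosomes are acrocentric, with the centromere close to the end at which coordinates start.

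The dogs were males of 12 to 16 years, and the tissue was flash-frozen brainstem. They differed at a transposable element in an intron of *GTF2I* on CFA6, labelled Cfa6.66. The 3 dogs labelled ins were heterozygous for the ancestral allele, which holds the insertion, and the 3 labelled noins were homozygous for the derived allele, which lacks it. Each dog gave 1 *E2F1* and 1 *H3K27ac* peak list, brainstem is a mixture of cell types, and peak lists offer no marker by which the cells could be checked.

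The *E2F1* lists held 88236, 85871 and 133654 peaks in ins dogs 1 to 3 and 109663, 163356 and 118957 in noins dogs 1 to 3. The *H3K27ac* lists ranged from 99144 to 141336 peaks. Each *E2F1* peak has a summit, the base with the highest pileup, and a fold enrichment over local background. Fold was not normalized between dogs, so a peak was ranked within its own list and its percentile used. Fold and p together fix the whole number of fragments stacked at a summit and the background expected there, and both were recovered for 99.8% of the 11306 summits at *E2F1*-only sites. A missing peak means that a list names none, since read counts at such places were not used here.

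Recurrence and acetylation went together across the whole series. A peak in 4 or more dogs was found at 2.94% of all merged regions, and 53.6% of all merged regions overlapped no *H3K27ac* peak. Among the 14019 recurrent regions under 2 kb that share was 17.9%, which is the 2505 sites, while 8752 overlapped *H3K27ac* in all 6 dogs and 2762 in 1 to 5 dogs. The share without the mark was 57.9% of regions seen in 1 dog, 42.2% in 2 dogs, 29.4% in 3 dogs, 20.2% in 4 dogs, 15.2% in 5 dogs and 14.8% in 6 dogs. An overlap of 1 bp was enough to count, and length rose with the number of dogs. The median length of *E2F1*-only sites was 648.5 bp in 4 dogs, 802 bp in 5 and 812 bp in 6. The part of length in these shares was not tested.

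Most *E2F1*-only sites stood at the lower limit of the rule. Of the 2505, 1548 were called in 4 dogs, 628 in 5 and 329 in 6. Just outside the limit lay 5425 regions with a peak in 3 dogs and no *H3K27ac*, with a median fold of 4.19, a median of 7 fragments at the summit and a median length of 527 bp. The 4-dog sites had a median fold of 4.50, a median of 8.5 fragments and a median length of 648.5 bp. At the length limit, the longest site spanned 1995 bp on CFA2, from 81855844 to 81857838, followed by 1993 bp on CFA5 and 1989 bp on CFA8, and the shortest region left out spanned 2003 bp on CFA1, from 78499 to 80501. The length limit removed 76 regions that met the other criteria. The deposited lists run below the thresholds that the study used, and with those, a q value below 0.0005 for *E2F1* and 0.05 for *H3K27ac*, 871 regions met the rule. The paper describes its *E2F1* tracks as noisier than usual and gives this as the reason for its stringent peak calling.

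The number of sites with a peak differed more between dogs of 1 genotype than between genotypes. Ins dogs 1 to 3 had a peak at 1648, 1882 and 2133 sites, and noins dogs 1 to 3 at 1600, 2181 and 1862. The values of the groups overlapped, with a mean of 1888 ± 243 in ins and 1881 ± 291 in noins (SD, n = 3 each). The difference of -6.67 sites was far inside this spread (exact two-sided permutation test, p = 1, adjusted p = 1 over the 6 tests made). The longest lists, those of noins dog 2 and ins dog 3, gave the highest counts, but the lowest count came from noins dog 1, whose list was longer than those of ins dogs 1 and 2.

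As a share of each dog's autosomal *E2F1* peaks, the sites took 1.95%, 2.31% and 1.76% in ins dogs 1 to 3. They took 1.54%, 1.45% and 1.69% in noins dogs 1 to 3, so all 3 ins values lay above all 3 noins values. The means were 2.005% ± 0.281 and 1.56% ± 0.124 (SD, n = 3 each), a difference of -0.443 percentage points. The exact two-sided permutation test gave p = 0.1, the smallest that 3 dogs against 3 allow, with an adjusted p of 0.15. The shortest lists of the series belonged to ins dogs 1 and 2. With the same number of peaks taken from each list the difference was -0.126 percentage points (exact permutation test, p = 0.6), and at the study's q thresholds it was -0.00178 (exact permutation test, p = 1).

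Sites called in exactly 4 dogs hold both genotypes by construction, and differ in how many dogs of each they hold. All 3 ins dogs and 1 noins dog made up 260 of the 1548, or 16.8%, against a background of 23.0% among all 4-dog regions of the series. All 3 noins dogs and 1 ins dog made up 311, or 20.1%, against a background of 13.5%. The remaining 977 sites, or 63.1%, had 2 dogs of each genotype, against 63.4% of all 4-dog regions. The dog most often missing from a 4-dog site was ins dog 1, at 729 sites, and the least often missing was noins dog 2, at 287. The part of list size in these shares was not tested.

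*E2F1*-only sites were short, and about as shallow as recurrent regions with *H3K27ac* in 1 to 5 dogs. Their median length was 706 bp, with quartiles of 483 and 960 bp and a range of 172 to 1995 bp. In 2126 of them, or 84.9%, every dog with a peak had only 1 peak in the region. The median over sites of the fragments at the summit was 9.5, with quartiles of 7.5 and 13, and 53.8% of sites had a median below 10. Recurrent regions with *H3K27ac* in 1 to 5 dogs had a median of 9, with 54.6% below 10. Single-dog regions without *H3K27ac* had a median of 6 fragments, and the 8752 recurrent regions with *H3K27ac* in all 6 dogs, called acetylated sites from here on, had 10.5. Within dogs, *E2F1*-only against acetylated sites had medians of 10 and 9, 11 and 12, and 9 and 12 in ins dogs 1 to 3. In noins dogs 1 to 3 the medians were 9 and 9, 12 and 14, and 8 and 8. The acetylated sites were also longer, with a median of 998 bp.

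In each dog's own list, the peaks at *E2F1*-only sites ranked above the middle. Their median percentile by fold was 63.1, 67.3 and 75.6 in ins dogs 1 to 3, and 61.2, 73.8 and 71.4 in noins dogs 1 to 3. The rule asked for a peak in 4 or more lists, and each dog's highest peak in a region was used. A rank above the middle is therefore not independent of the selection. The genotypes did not separate, at 68.7 ± 6.34 and 68.8 ± 6.70 (SD, n = 3 each), a difference of 0.131 (exact two-sided permutation test, p = 1, adjusted p = 1). The sign of this difference turned negative under several other settings. With 3 dogs against 3, no exact permutation test of it could give a p below 0.1.

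The same dogs ranked acetylated sites higher, except for 1 dog. Their median percentiles were 72.5, 79.99 and 89.2 in ins dogs 1 to 3, and 59.4, 89.6 and 80.8 in noins dogs 1 to 3. The *E2F1*-only sites were lower by 9.86 percentile points on average (SD of the difference 6.23), and lower in 5 of 6 dogs. A two-sided exact test by flipping the signs of the 6 differences gave p = 0.0625 and an adjusted p of 0.125. The difference was -1.29 points (exact test, p = 0.562) where *H3K27ac* had to cover 50% of a region to count, and -6.24 (exact test, p = 0.0938) without regions of high local background, a class taken up further on. The exception was noins dog 1, in which *E2F1*-only sites ranked 1.81 points higher. This dog also had a peak at only 4269 of the acetylated sites, against 6068 to 8356 in the others.

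Peak width at *E2F1*-only sites was lower in each of the 6 dogs. The median width of a dog's strongest peak was 344, 353 and 332 bp in ins dogs 1 to 3 and 268.5, 384 and 279 bp in noins dogs 1 to 3. At acetylated sites it was 404.5, 490 and 484 bp in ins dogs and 272, 571 and 321 bp in noins dogs. The mean difference was -97 bp (SD 71.9), with lower values in 6 of 6 dogs, although by only 3.5 bp in noins dog 1. The same exact test gave p = 0.0312, the smallest that 6 dogs allow, and an adjusted p of 0.0938. Peak width, and the summit distance given next, are bounded by region length, a value that the rule used. Neither test is therefore independent of the rule. The median region length was 706 bp at *E2F1*-only sites and 998 bp at acetylated sites.

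Summit distances at *E2F1*-only sites were lower in each of the 6 dogs as well. The median distance of a dog's summit from the median summit of the other dogs was 96, 80 and 88 bp in ins dogs 1 to 3 and 93.5, 87 and 87.5 bp in noins dogs 1 to 3. At acetylated sites it was 145, 117.5 and 116 bp in ins dogs and 182.5, 121.8 and 132 bp in noins dogs. The mean difference was -47.1 bp (SD 21.8), with lower values in 6 of 6 dogs (two-sided exact test by sign flips, p = 0.0312, adjusted p = 0.0938).

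**Figure D1:**
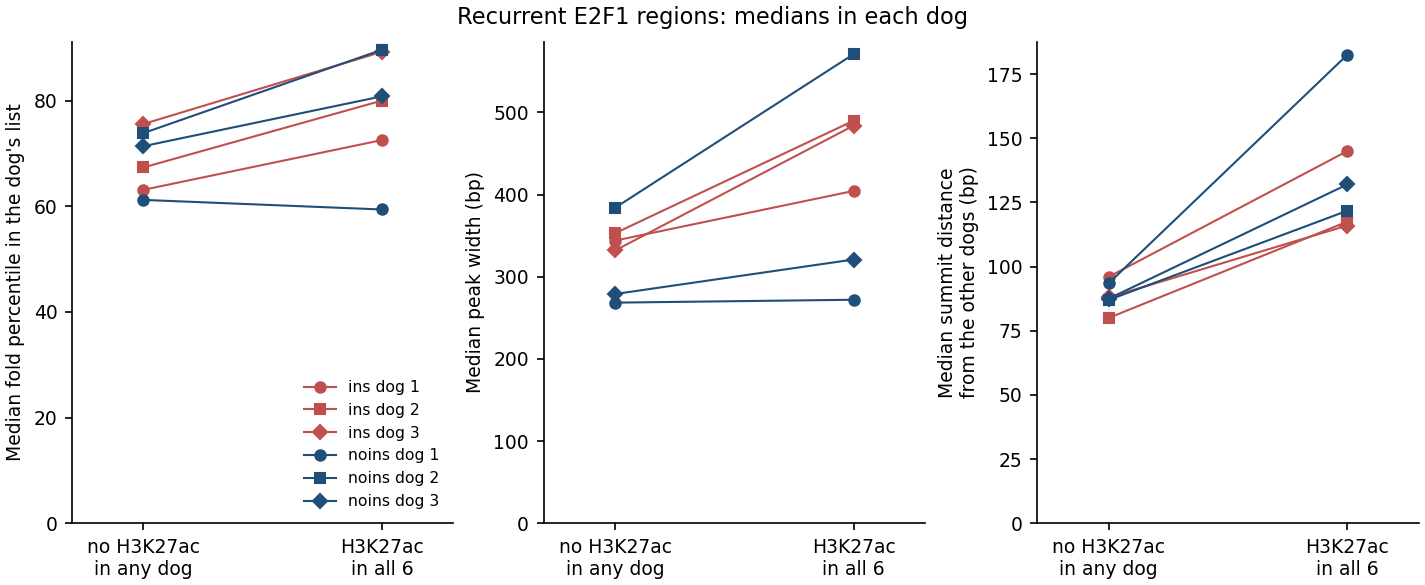
Medians in each of the 6 dogs at recurrent *E2F1* regions with no *H3K27ac* peak in any dog and at those with an *H3K27ac* peak in all 6 dogs, for fold percentile, peak width in bp and summit distance in bp. Lines join the values of 1 dog, and all run upward from left to right except the fold percentile of noins dog 1, which falls from 61.2 to 59.4.

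The differences in width and summit distance were smaller between regions of like length. Among regions from 500 bp to under 1000 bp in both sets, a restriction chosen after the data were seen, 1263 *E2F1*-only and 3967 acetylated sites remained. The width difference was then -13.4 bp (exact sign-flip permutation test, p = 0.219) and the summit difference -7.46 bp (exact sign-flip permutation test, p = 0.0938). The fold percentile differed by -5.11 points (exact sign-flip permutation test, p = 0.0312). As a share of region length, the range of summits over dogs had a median of 41.8% at *E2F1*-only sites and 46.0% at acetylated sites.

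High local background marked some of the 2505 sites. At 234 sites, or 9.34%, the median local background was 5 or more times the lowest background of the dog's list, and at 196 of these it was 10 or more times. Of the recurrent regions with *H3K27ac* in 1 to 5 dogs, 128 of 2762, or 4.63%, were also of this kind. The numbers were 19 of the 8752 acetylated sites, 0.217%, and 0.0842% of the single-dog regions without *H3K27ac*. The share was 3.29% of 4-dog sites, 8.28% of 5-dog sites and 39.8% of 6-dog sites. In every dog more than 9% of the peaks at *E2F1*-only sites had such a background, from 9.40% in ins dog 3 to 15.2% in noins dog 1. The value of 5 was set after the data were seen, and the sites with values of 5 to 10 numbered 38.

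**Figure D2:**
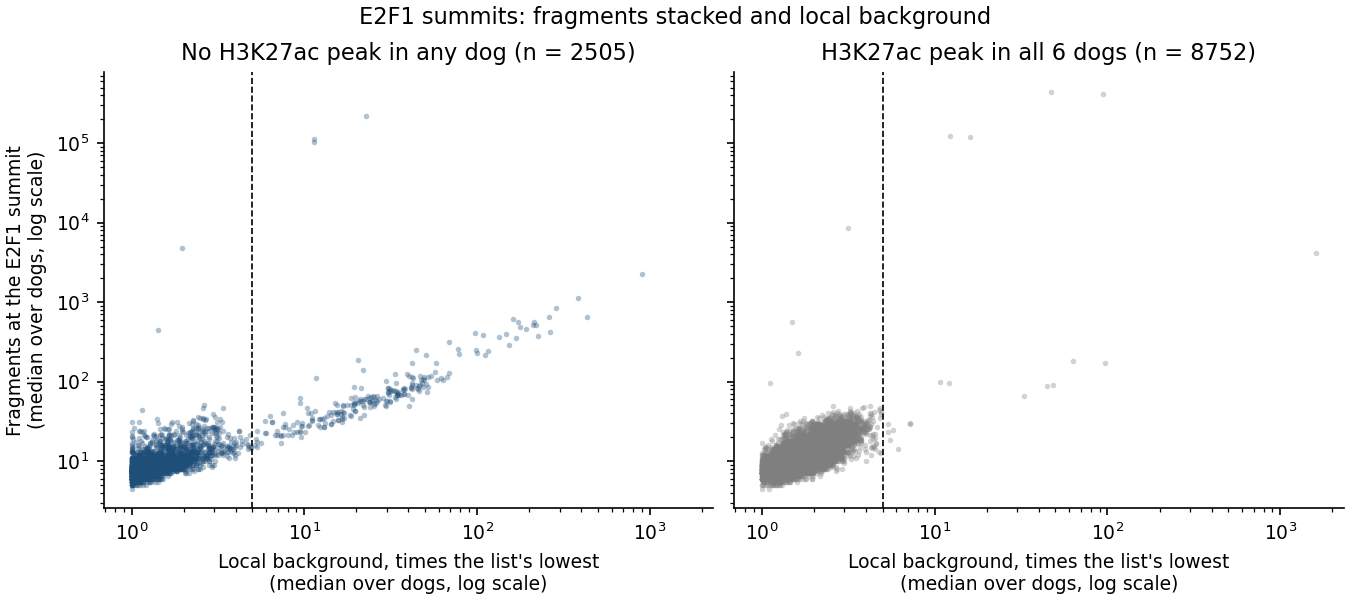
Fragments at the *E2F1* summit against local background as a multiple of the lowest background of the list, both as medians over dogs and on log scales, with 1 point per site and a dashed line at 5 times. To the right of the line lie 234 of 2505 sites without *H3K27ac* and 19 of 8752 acetylated sites.

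These high-background sites had many fragments and little enrichment. Their median was 59.2 fragments at the summit, against 9 at the other 2271 *E2F1*-only sites, while their median fold was 3.05 against 4.67. Fragments and fold are both tied to the background that defines the class, so neither contrast is independent of that definition. The summits of the high-background sites agreed more, with a median range over dogs of 141 bp against 301 bp. A range of at most 50 bp was found at 27.8% of them and at 4.40% of the others. They were farther from the mark, with a median of 4694 bp to the nearest *H3K27ac* peak against 1379 bp. As many as 131 of the 234 were called in all 6 dogs, compared with 198 of the 2271.

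High-background sites crowded at the low-coordinate ends of chromosomes. Of the 234, 145 lay in the first 1 Mb of 21 chromosomes, which is 62.0%, and 24 lay in the last 1 Mb. They also lay close together, at a median distance of 1878 bp to the nearest *E2F1*-only site, whereas the other sites had a median of 105825 bp. The authors kept reads that map to several places, and the part of such reads in these pileups was not tested.

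Both chromosome ends held more of the *E2F1*-only sites than their share of length. The first 1 Mb held 9.18% of sites and the last 1 Mb 6.91%, where each window makes up 1.72% of the summed length. Acetylated sites were at 2.07% and 1.29%, and all merged *E2F1* regions at 2.13% and 2.65%. Without the high-background sites the first 1 Mb was at 3.74%, and the last 1 Mb was at 6.56%. In the last 5 Mb, which make up 8.62% of the length, lay 18.9% of the remaining sites and 8.26% of acetylated sites. Leaving out the high-background sites thus lowered the share at the low end and hardly moved that at the high end. The high end was uneven between chromosomes. With high-background sites included, CFA20 alone held 100 of the 458 sites in the last 5 Mb, while CFA5 and CFA15 held 0.

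**Figure D3:**
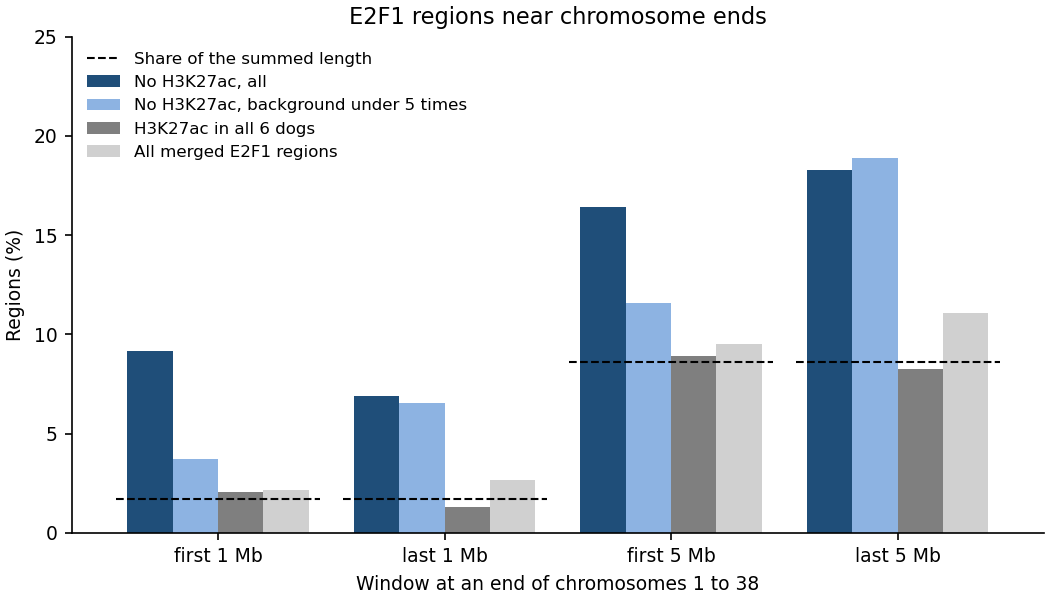
Percent of *E2F1* regions in windows of 1 and 5 Mb at the first and last coordinates of chromosomes 1 to 38, for *E2F1*-only sites with and without those of high background, acetylated sites and all merged regions. The dashed lines give each window's share of the summed length, 1.72% and 8.62%, and the bars for all *E2F1*-only sites rise to 9.18%, 6.91%, 16.4% and 18.3%.

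Sites whose background was within 5% of the lowest of the list numbered 466. They had a median of 7 fragments at the summit, and 29.2% lay in the last 5 Mb of a chromosome. In this class 2.36% were called in all 6 dogs, against 59.2% where the background was 10 or more times the lowest. The median fold was 4.52 in the former and 2.97 in the latter. Fragments and fold are tied to the background that defines these classes too.

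Many sites had a neighbour of their kind. Within 100 kb of another *E2F1*-only site lay 52.8% of them, and within 10 kb 25.5%, while 1182 stood alone at 100 kb. Matching shares for acetylated sites or all merged regions are not given here. Such nearness is therefore not shown to be particular to *E2F1*-only sites. Joined at 100 kb, the sites formed 18 clusters of 10 or more, with 286 sites in them. Of these 18 clusters, 5 had a median background of 5 or more times the lowest, and each of those 5 started within the first 26032 bases of its chromosome. Another 11 had a median background under 2 times the lowest.

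The clusters at chromosome starts were alike in their values. On CFA6, 21 sites lay from 3605 to 135266, with a median background of 33.9 times the lowest and a median of 61.5 fragments. On CFA34, 14 sites lay from 6693 to 91253, with a background of 45.9 times and 85.5 fragments. On CFA1, 15 sites lay from 13647 to 91637, at 31.4 times and 67.5 fragments, and 10 of them were called in all 6 dogs. All sites of these 3 clusters were of high background. The clusters of CFA3, from 26032 to 218164, and CFA37, from 19742 to 143728, held 18 of 19 and 15 of 16 such sites.

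The cluster with the most sites was of low background and more widely spaced than the 5 high-background clusters. It lay on CFA20 from 57254626 to 57977939, and held 40 sites in 723 kb, ending 154528 bp below the last peak of the chromosome. Its median background was 1.14 times the lowest, with 9 fragments at the summit and a fold of 5.22, and none of its sites was of high background. The same stretch held 533 merged *E2F1* regions and only 7 acetylated sites. Of the 40 sites, 3 were called in all 6 dogs. The site with the highest fold among them, 23.0 in 1 dog, spanned 57977386 to 57977939 at the end of the cluster, and the median fold over its 6 dogs was 8.91.

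Another cluster on CFA20, from 55307870 to 56158867, held 25 sites with a background of 1.09 times the lowest. There 14 acetylated sites lay among them. On CFA18, from 46434431 to 46903715, 20 sites had a background of 1.17 times and 3 acetylated sites lay among them. On CFA9, 17 sites from 19444 to 498491 had a background of 1.19 times the lowest, although this cluster too starts at the low end. By chromosome, CFA9 held 199 sites, or 3.26 per Mb, and CFA20 held 168, or 2.89 per Mb. The lowest density was on CFA29, with 11 sites and 0.263 per Mb, where acetylated sites were also few at 1.03 per Mb.

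Most *E2F1*-only sites were near an *H3K27ac* peak without touching it. The distance from a site to the nearest *H3K27ac* peak of any dog had a median of 1620 bp, with quartiles of 416 and 7084 bp. It was under 1 kb at 41.5% of sites, under 5 kb at 69.3% and under 10 kb at 79.5%. At 443 sites, 17.7%, each of the 6 dogs had an *H3K27ac* peak within 1 kb, and at 948 within 5 kb. Single-dog regions without *H3K27ac* had a median of 3673 bp, and 2.24% of them had all 6 dogs within 1 kb. At 4 sites the distance was 0 bp, so that the peaks touched without sharing a base. In coordinate order the first of these lay on CFA1 from 97356895 to 97357702, CFA18 from 45174235 to 45174889 and CFA30 from 33467201 to 33468162. Each was called in 4 dogs, with median folds of 3.99, 4.51 and 4.69. The rule used the absence of the mark, and these distances are therefore not tested.

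**Figure D4:**
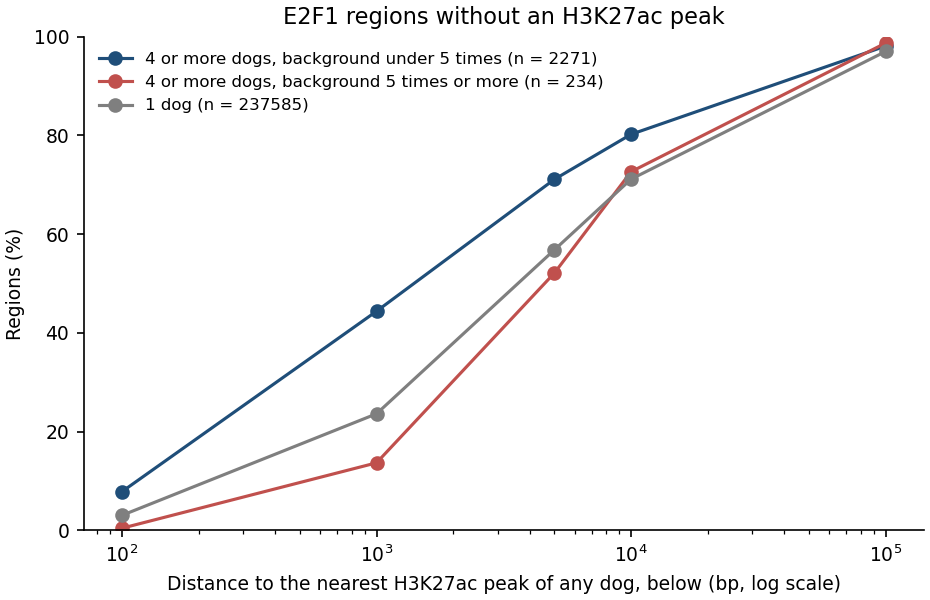
Cumulative percent of *E2F1* regions without *H3K27ac* whose nearest *H3K27ac* peak of any dog lay below a given distance in bp, on a log scale. Below 1 kb the values are 44.4% for sites of background under 5 times, 13.7% for sites of higher background and 23.6% for single-dog regions.

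Some sites were isolated from the mark. The farthest lay on CFA37 from 4131694 to 4132065, at 825323 bp from the nearest *H3K27ac* peak. It was called in 5 dogs with folds of 4.53 and 4.83 in ins dogs 1 and 2 and of 6.72, 4.72 and 5.22 in noins dogs 1 to 3. The next lay on CFA38 from 9427235 to 9427541, at 825087 bp, with folds of 4.40, 4.87 and 3.77 in ins dogs 1 to 3 and 5.97 in noins dog 1. The third lay on CFA4 from 81756742 to 81757170, at 554899 bp. Their summit ranges of 96, 59 and 91 bp were all below the median of 285 bp over all *E2F1*-only sites. Region length bounds this range, and the 3 sites were short, at 372, 307 and 429 bp against a median of 706 bp.

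The strongest sites called in all 6 dogs were taken by the lowest of their 6 percentiles. The first lay on CFA21 from 29060381 to 29061252, at 246096 bp from any *H3K27ac* peak. Its fold was 61.8, 191 and 253 in ins dogs 1 to 3 and 124, 379 and 275 in noins dogs 1 to 3. The fragments at its summit numbered 308, 334 and 413 in ins dogs and 629, 769 and 483 in noins dogs. All 6 summits lay within 17 bp, between 29061207 and 29061224, and the peak stood at or above percentile 99.98 of every list. Fold and fragments were thus high in every dog, and lowest in ins dog 1, although background was low in 4 of the dogs and 4.50 to 5.19 times the lowest in noins dog 1 and ins dog 1.

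The other 9 of the 10 strongest had median folds over dogs from 7.91 to 13.7, where the median over all *E2F1*-only sites was 4.58 and the 95th percentile 8.22. On CFA14, from 51859280 to 51859848, the folds were 10.3, 11.6 and 14.5 in ins dogs 1 to 3 and 7.56, 12.4 and 10.7 in noins dogs 1 to 3. The groups overlapped, and the summits ranged over 149 bp. On CFA1, from 98759529 to 98760174, the folds were 7.17, 20.3 and 18.0 in ins dogs and 6.07, 15.4 and 10.2 in noins dogs. There 5 of 6 summits lay within 18 bp of each other, with that of noins dog 3 lower.

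On CFA2, from 32746673 to 32746918, the 6 peaks were of almost the same extent, 217 to 246 bp wide. Their folds were 15.1, 7.41 and 8.76 in ins dogs 1 to 3 and 12.1, 8.86 and 29.9 in noins dogs 1 to 3, and the summits lay within 26 bp. This site was 58705 bp from *H3K27ac*. On CFA4, from 10466439 to 10466705, the background was 11.7 times the lowest. Its folds were 8.37, 13.7 and 18.4 in ins dogs and 6.96, 13.6 and 14.9 in noins dogs, with 45 to 206 fragments. Genotypes overlapped at both sites.

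Of the 10 strongest sites, 6 lay within 1 kb of an *H3K27ac* peak. On CFA20, from 54182689 to 54183623, at 359 bp from the mark, the folds were 9.39, 10.4 and 14.3 in ins dogs 1 to 3 and 5.76, 15.4 and 14.5 in noins dogs 1 to 3. The summits of the 3 noins dogs lay within 2 bp of each other, and those of ins dogs 1 and 2 stood at 52.5 and -70.5 bp from the median. On CFA9, from 50373024 to 50373941, at 990 bp from the mark, the folds were 10.0, 12.7 and 16.2 in ins dogs and 6.15, 20.7 and 8.11 in noins dogs. Noins dog 1 had the lowest fold of the 6 dogs at 8 of the 10 strongest sites. Fold is not normalized between dogs, and this dog's median fold was the lowest throughout. It was 4.18 at all *E2F1*-only sites and 4.11 at acetylated sites.

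**Figure D5:**
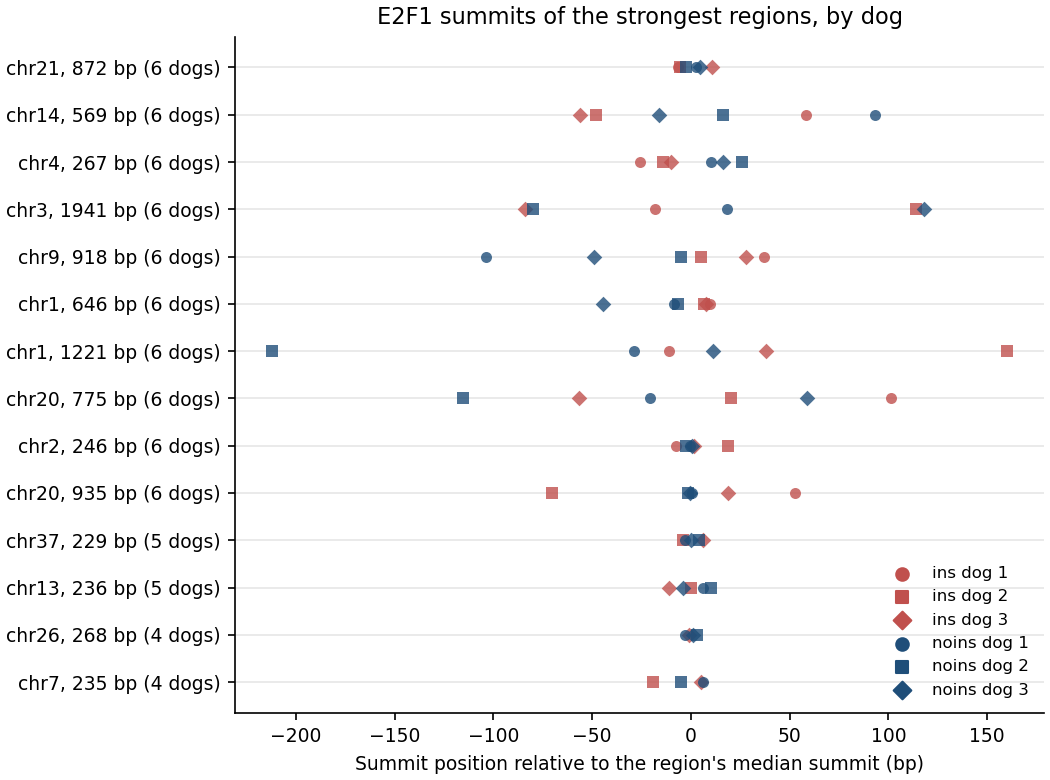
Position of each dog's *E2F1* summit relative to the region's median summit, in bp, at the 10 strongest sites called in all 6 dogs and the 4 others with a fold above 100. Summits at the sites above 100-fold lay within 6 to 25 bp, while those at the site on CFA1 of 1221 bp spread over 372 bp.

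At 5 sites the fold passed 100 in at least 1 dog, including the CFA21 site described above. The other 4 were between 229 and 268 bp long, and ins dog 1 had a peak at none of them. On CFA37, from 3619690 to 3619918, the folds were 12667 and 14748 in ins dogs 2 and 3 and 7243, 7478 and 23930 in noins dogs 1 to 3. The summit held 72229 to 161329 fragments, and the 5 summits lay within 10 bp. In ins dog 1 the nearest *E2F1* peak was 12773 bp away.

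On CFA26, from 6800153 to 6800420, the folds were 16851 in ins dog 3 and 6516, 9852 and 16874 in noins dogs 1 to 3, with summits within 6 bp. The fragments at the summit reached 288847 in noins dog 2. Here ins dogs 1 and 2 had no peak, the nearest being 14850 and 3342 bp away. On CFA7, from 26221633 to 26221867, the folds were 6895 and 12024 in ins dogs 2 and 3 and 7163 and 10245 in noins dogs 1 and 2. On CFA13, from 56563284 to 56563519, they were 1914 and 2242 in ins dogs 2 and 3 and 1618, 3192 and 1831 in noins dogs 1 to 3. The highest fold of ins dog 1 at any *E2F1*-only site was the 61.8 on CFA21, while the other 5 dogs each reached at least 7243.

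Folds above 100 were also found elsewhere, at 7 acetylated sites, at 7 sites with *H3K27ac* in 1 to 5 dogs, and at 39 of all merged regions. What lies under these sites in the genome was not analysed here, as no CanFam3.1 sequence or annotation was used.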

How the data were processed

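*E2F1* and *H3K27ac* *ChIP-seq* peak lists of 6 dogs were analysed, 1 of each per dog, with genotype and replicate number from the sample labels. Input libraries were not analysed here.

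The authors aligned reads to CanFam3.1 with bowtie, removed duplicates by unique molecular identifier and called peaks in each dog with macs2, narrow for *E2F1* and broad for *H3K27ac*. The deposited lists give a score, which was not used, and a fold enrichment, a ratio to local background. They also give the authors' −log10 p and −log10 q. Values are not normalized between dogs, peaks seen in input were not removed, and whether input entered the calls is not given in the sources used here. Read depth is not in the lists, so no detection limit was computed.

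Peaks that overlapped by at least 1 bp or touched were merged, on coordinates written 1-based. Where a dog had several peaks in a region, that of highest fold was used. Fragments and local background were solved from fold, taken as fragments plus 1 over background plus 1, and the Poisson p, with a tolerance of 0.0001 in −log10 p. The solution was tested on simulated data. Genotypes were compared with exact two-sided permutation tests over 20 assignments, and site classes with exact two-sided sign-flip tests over 64, with Benjamini-Hochberg adjustment over 6 tests. Each dog is 1 sample, and the p-values are shares of these assignments over dogs. With all 6 dogs the smallest possible values are 0.1 for genotypes and 0.0312 for site classes.

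Named regions are the 10 strongest 6-dog sites by lowest percentile, those nearest to and farthest from *H3K27ac*, the widest and the narrowest excluded, the cluster with the most sites, and all with a fold above 100. The sites, lists and tests were chosen with earlier results of these data known. Python 3.11.15 with numpy 2.4.6, pandas 2.3.3, scipy 1.17.1 and matplotlib 3.10.9 was used. The *E2F1* sites were not annotated to genes, since no CanFam3.1 annotation was used.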

Additional observations from a re-analysis of the deposited data

Results flagged for a closer look

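Chromosome X lay outside the comparisons, which were made on chromosomes 1 to 38. By the same rule, 98 regions of chromosome X carried an *E2F1* peak in 4 or more dogs with no *H3K27ac* peak, out of 335 recurrent regions under 2 kb there. No comparison was made with them, beyond the setting that adds chromosome X.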

How the results depend on the processing

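The alternatives gave 121 values for 7 results, of which 73 kept their direction and their side of the 0.05 threshold, or stayed within 1.5 times for a count. For the genotype tests the side was fixed in advance, as 3 dogs against 3 allow no exact permutation p below 0.1. The number of *E2F1*-only sites was 2505 as reported, 871 at the study's q thresholds, 185 with *E2F1* q below 1e-10, 957 with 5 or more dogs, 329 with all 6 dogs, 1465 with no *H3K27ac* within 1 kb, 4188 where *H3K27ac* had to cover 50% of a region, and 1343 to 1839 without each dog in turn. Leaving out ins dog 2 (1533), ins dog 3 (1343), noins dog 2 (1449) or noins dog 3 (1544) moved it by more than 1.5 times.

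The genotype difference in sites per dog turned to 54 with no *H3K27ac* within 1 kb and ran from -132 to 56.8 without each dog. That in the share of peaks turned to 1.896 percentage points with *E2F1* q below 1e-10. It was -0.00178 at the study's thresholds, -0.126 with equal lists, -0.232 with 5 or more dogs, -0.0727 with 6 dogs, -0.202 with no *H3K27ac* within 1 kb and -0.880 with *H3K27ac* covering 50%. It was -0.229 without ins dog 2 and -0.281 without noins dog 2. That in fold percentile was -13.3 at the study's thresholds, -4.70 with equal lists, -1.82 with 5 or more dogs and -0.285 with 6 dogs, and -4.93 to 5.91 without each dog. None of these genotype tests could pass the threshold, whatever the values.

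The fold percentile of *E2F1*-only against acetylated sites passed it, at an exact unadjusted p of 0.0312, at the study's thresholds (-20.3), with *E2F1* q below 1e-10 (-33.9), equal lists (-12.4), 5 or more dogs (-12.5), 6 dogs (-21.1) and regions of 500 bp to under 1000 bp (-5.11). It did not pass with no *H3K27ac* within 1 kb (-16.9), with *H3K27ac* covering 50% (-1.29, exact p of 0.562) or without high-background regions (-6.24, exact p of 0.0938). The width difference no longer passed at the study's thresholds (-131 bp), with *E2F1* q below 1e-10 (-247), 5 or more dogs (-113), 6 dogs (-130), no *H3K27ac* within 1 kb (-107), *H3K27ac* covering 50% (-44.7) and regions of 500 bp to under 1000 bp (-13.4), where the summit difference was -7.46 bp. Without each dog, width ran from -116 to -107 bp and summit distance from -50.1 to -36.2 bp. The exact sign-flip p for summit distance was then always 0.0625, the smallest that 5 dogs allow. For width it was 0.0625 without noins dog 1, and above that floor, at 0.125, without any other dog. The causes of these changes were not tested. Leaving out the 234 high-background sites, a setting chosen after the data were seen, left the tests between site classes on their side of the threshold. The genotype tests could not change side.

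The labels give same-numbered dogs of the 2 genotypes nothing in common but the number. Their deviations correlated at 0.0686, 0.0408 and 0.0241, and those of dogs with unlike numbers at -0.0495 to 0.0172. Whether the replicate number stands for a shared batch was not tested. With the replicate number as a block, the differences stayed at -6.67 sites, -0.443 percentage points and 0.131 percentile points, and the exact p for the share was 0.25, the smallest 3 pairs allow.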
